A study of Schmidtea mediterranea with 6 samples.

Results

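Narrow poly(A) sites without either of the common poly(A) signal hexamers were examined on a custom array of 5406 distinct probe sequences from the planarian flatworm Schmidtea mediterranea. A site is the stretch of positions at which transcripts were mapped to end, and it was called narrow where its end minus its start was at most 15 nt. A narrow site belonged to the set where neither AATAAA nor ATTAAA started 10 to 35 nt from the 3′ end of its probe, counting the last base as 1. The rule used design text and sequence only, and no signal. It took 1852 sequences, each counted at 1 site. They make up 46% of the 4030 narrow sequences and 34.3% of all sequences. The other narrow sequences were 1845 with AATAAA and 333 with ATTAAA alone, and 1376 sequences lay at sites wider than 15 nt.

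The samples were mRNA, taken with oligo-dT from flow-sorted cells of the sexual strain and given no treatment, and the series asked how alternatively polyadenylated transcripts are expressed across 3 populations. Per the labels, X1 holds stem cells, X2 progenitor cells and Xins differentiated cells, with 2 one-colour arrays for each gate. The gates were not checked against marker genes, because the files pair no transcript model with a gene name. Whether a gate's arrays stem from different animals or sortings is not labelled, so p-values cover only the scatter of these samples, possibly a technical one. In bulk RNA of a gate, fewer cells of a type and less RNA per cell cannot be told apart.

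In animals, the 3′ end of most messenger RNAs is made by cleavage followed by addition of a poly(A) tail. The cleavage and polyadenylation specificity factor reads the hexamer AAUAAA a short way upstream of the cut, and AUUAAA is the variant read most often after it in mammals. Other single-base variants of the hexamer also work, as a rule less well, and some sites are used with no recognisable hexamer. Apparent sites can also arise when oligo-dT primes inside a transcript on a stretch of genomic A, which is called internal priming.

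The last 30 bases of the probes that the results below turn on are given first, 5′ to 3′ in the sense of the transcript. Capitals mark single-base variants of AATAAA that start 10 to 35 nt from the end. A variant that starts before the first base shown is cut at the left edge. The first set holds the variant AATATA, the commonest in these sites.
mk4.000401.10.01: aAATATAttttggattgtgtcaccgttgta
mk4.000610.08.01: tAATATAttatttaatctttatcattttac
OX_Smed_1.0.01327: gttctaAATATAactttgaattgtctttat
mk4.000031.17.01: gtgatggacagAATATActttgcgttttat
dd_smedV4_6637_0_1: ATAATATAattataatgcaagttttgtttt
OX_Smed_1.0.21224: tTATAAATATAtctgtttattgtctgattt

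The second set carries other variants, AATACA at the first 3 sites and CATAAA at the last.
OX_Smed_1.0.03038: CTAAATACAacgaaaccttgtttttattat
OX_Smed_1.0.09211: gtatttgAATACAattttcttttaggtctt
OX_Smed_1.0.14236: aGATAAATACAcatttcgtatcttgaattt
OX_Smed_1.0.00784: ctcCATAAAttatattttgctatgacttta

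The third set has no single-base variant in the window and includes sites with some of the widest differences between gates.
OX_Smed_1.0.22926: gttcggattaattacagattttaaatgact
OX_Smed_1.0.13864: aatgagaaatcgcccgtcaaaatttgattc
mk4.008247.00.01: ggagacgttggtttaagaggagctaaaggc
OX_Smed_1.0.22981: gcattgaagcatcacgaaaagcctaaacaa
mk4.027145.01.01: agcaatttttgaaggtccctcaaggactag
OX_Smed_1.0.21139: tccatttgtggattgacttgtaattttgaa

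The last set shows 2 probes whose 3′ ends are rich in A, one of them with the variant CATAAA upstream.
mk4.000165.03.01: tcctgaaggcacgacatgtgatacaaaaaa
OX_Smed_1.0.01657: tctggtgCATAAAttcacggcaaaaaaaag

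The sites lacking both hexamers were spread over 1549 contigs, 873 on the plus and 979 on the minus strand. With each sequence counted at 1 site, no site carried more than 1 of them, and 35 sequences also matched a second site. A total of 730 were entered through 1 transcript model, and the most widely shared came through 25. A single cleavage position was listed for 1096 of them (59.2%), against 48.8% of the narrow sites with AATAAA. Median GC content was 22.2% (quartiles 17.8 and 26.7), against 20% (15.6 and 24.4) with AATAAA. Probe length followed site width exactly: each of the 4030 narrow probes was 45 nt plus the site width, and each of the 1376 wide ones was 60 nt.

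Most of these sites still carried a hexamer 1 base away from the canonical signal. At least 1 of the other 17 single-base variants started in the window in 1297 of 1852 sequences (70.0%, 95% exact Clopper-Pearson interval 67.9 to 72.1%). The same share was 40.9% for narrow sites with AATAAA, 73.0% with ATTAAA alone and 54.6% over all sequences. The definition of the classes shapes these shares. AATTAA, which overlaps ATTAAA in the letters AATTAAA, was found in 48.9% of the sites with ATTAAA alone. In the AATAAA class, AATAAA fills part of the window. On the opposite strand, where these letters are no poly(A) signal, the reverse complements of the 17 variants matched in 62.3%, against 55.1% with AATAAA. A single variant was present in 870 and more than 1 in 427, while 555 had none. These intervals treat the printed sequences as a sample and say nothing of how the sites were mapped.

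The variant AATATA, with T for the fifth base, accounted for the largest count. It was found in 590 sequences (31.9%), against 5.58% of narrow sites with AATAAA. Next came TATAAA with 229 (12.4%, against 5.75%) and AATACA with 163 (8.80%, against 1.19%). At least 1 of these 3 hexamers was present in 844 sites, which is 45.6%. AATATA and TATAAA occurred together in 118 sequences, in some of them as overlapping letters, as in OX_Smed_1.0.21224 above.

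Not every variant was more frequent than among sites with the canonical signal. AATAAT was found in 9.83% of sites lacking both hexamers, against 10.8% of those with AATAAA, and AATTAA in 4.43%, against 7.53%. The rule itself lowers the AATTAA share, since it removes any AATTAAA whose ATTAAA lies in the window. AATAGA (4.32%, against 1.14%) and AGTAAA (3.24%, against 1.03%) were rarer overall. The letters of these AT-rich sequences also gave matches on the opposite strand. TATATT, the reverse complement of AATATA, was found in 17.8%, against 4.99%, and it overlaps AATATA wherever the letters run AATATATT. For AATACA, the reverse complement TGTATT was found in 3.24%, against 3.58%, and TTTATA, the reverse complement of TATAAA, in 7.34%, against 6.23%.

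Most AATATA matches started within a narrow range of distances from the end. The 607 occurrences of AATATA in the window had a median start 23 nt from the 3′ end and were commonest at 22 nt. Of those starting 7 to 39 nt from the end, 511 started at 18 to 28 nt, against 39 at 7 to 17 nt and 75 at 29 to 39 nt, so that 81.8% lay in the middle bin of 3 equal bins. In the narrow sites with AATAAA, the canonical hexamer itself had the same median (23 nt) and commonest start (22 nt), with 84.0% in the middle bin. AATATA in those AATAAA sites was spread, with 54 starts in the middle bin and 31 and 35 in the outer bins. AATAAA itself started 1665 times in the middle bin there, which leaves AATATA less room. The contrast is therefore partly set by how the classes were defined.

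**Figure D1:**
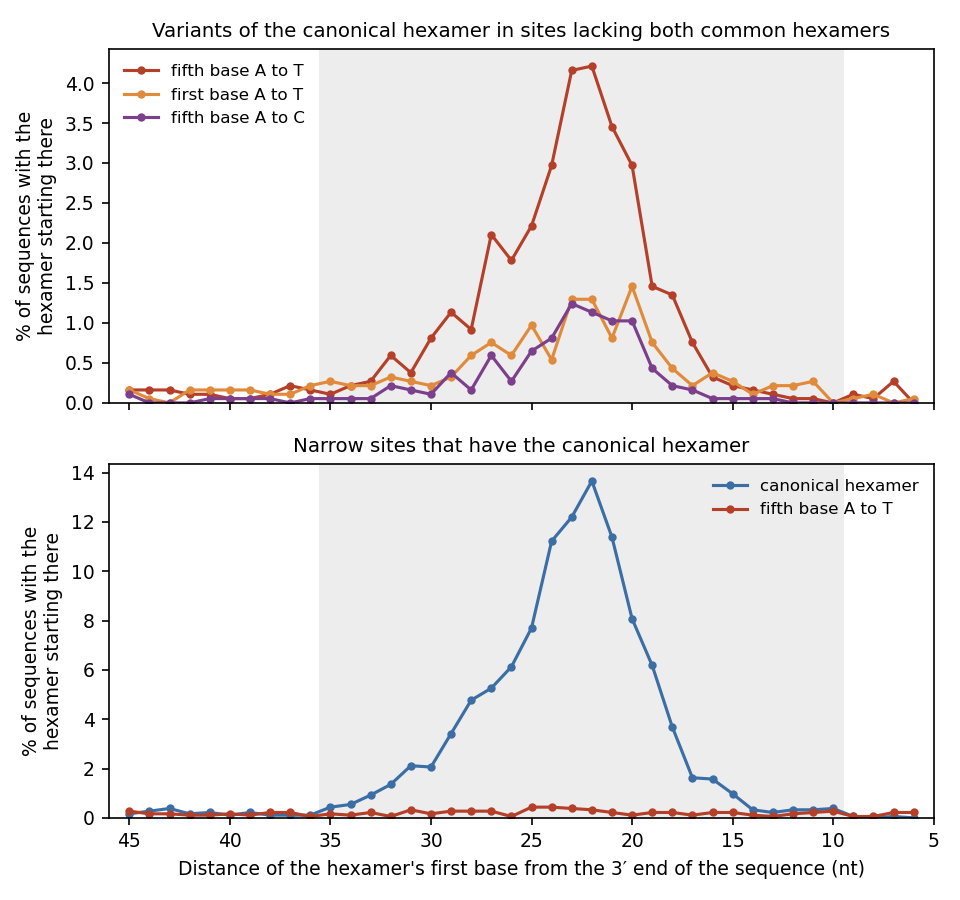
Percentage of sequences in which a hexamer starts at each distance from the 3′ end of the probe (nt), for narrow sites lacking both common hexamers (top) and narrow sites with the canonical hexamer (bottom); grey marks the window of 10 to 35 nt. The fifth-base A-to-T variant is commonest at 22 nt in the sites lacking both, where the canonical hexamer is commonest in its own sites. It has no such peak among sites with the canonical hexamer, which itself fills many of those positions.

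The other frequent variants gathered at the same distance. AATACA had a median start of 23 nt, with 140 starts in the middle bin and 7 and 22 in the outer bins (82.8%). For AATAGA the counts were 66, 7 and 8. TATAAA was less gathered, with 176 starts in the middle bin (69.0%), and AATAAT had 60.4% there. The opposite-strand letters TATATT had 57.1% there. At the 1096 sites with a single cleavage position, where the probe end is the listed position, AATATA had a median of 22 nt and 85.8% in the middle bin. It lay in the middle bin in 87.1% of occurrences on the minus strand and 75.7% on the plus strand, and the canonical hexamer of AATAAA sites showed the same order, with 90.5% and 76.7%.

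Near the cut itself both kinds of site had like letters. T was the last base in 57.9% of sites lacking both hexamers, against 57.3% with AATAAA, and A was the base before it in 50.3%, against 51.4%. The tetramer TGTA, the letters read by cleavage factor Im in mammals, was found in 30.7%, against 27.9%. AATAAA or ATTAAA outside the window was rare: 71 sequences (3.83%) held one elsewhere, 69 of them farther upstream and 2 nearer to the end.

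A-rich ends were rare. A 3′ end was called A-rich where at least 7 of the last 10 bases were A or where at least 6 A ran together there. This held for 16 of the 1852 sequences (0.864%), against 15 of 1845 with AATAAA (0.813%), and for 2.91% of the wide sites. The mean number of A in the last 10 bases was 2.62, against 2.64 with AATAAA. At least 6 A were found in 3.13%, against 3.04% with AATAAA, and at least 8 in 0.162%, against 0.163%. A run of at least 6 A in the last 10 bases was found in 6 sequences, against 1 with AATAAA.

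The bases past the site, where a genomic stretch of A would have to lie for oligo-dT to prime on it, are not part of the probes. Another probe on the array ran at least 10 bases past the end of 4 of these sites. Their next 10 bases held 0, 5, 5 and 2 A, so none of the 4 reached 7. For the remaining sites, internal priming at bases beyond the probe was not tested.

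Signal was well above background for about 1 in 5 of the sites lacking both hexamers. Since the probes hold no bases past the site, transcripts that run on to a later end could bind them too. Detection and calls therefore describe the probe sequence, and whether transcripts ended at the site was not tested. A sequence was counted as detected on an array where at least 50% of its spots carried the scanner software's mark. The share was 23.9% and 19.4% on the X1 arrays, 24.4% and 20.8% on the X2 arrays, and 22.2% and 18.3% on the Xins arrays. Gate means were 21.7 ± 3.21% in X1, 22.6 ± 2.56% in X2 and 20.3 ± 2.79% in Xins (SD, n = 2). They differ by less than these SDs, though among arrays of the same number the order was the same, with X2 highest and Xins lowest. The second array of each gate gave the lower share for all classes of site, and its 75th-percentile intensity was lower too.

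On 6 of 6 arrays the share was higher than for narrow sites with AATAAA, which were at 12.5 to 17.6%. It was far below that of wide sites, at 51.7 to 63.4%. A total of 1235 of the 1852 sequences (66.7%) were detected on no array and 237 on all 6. Undetected means only that the probe was not well above background at this sensitivity.

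**Figure D2:**
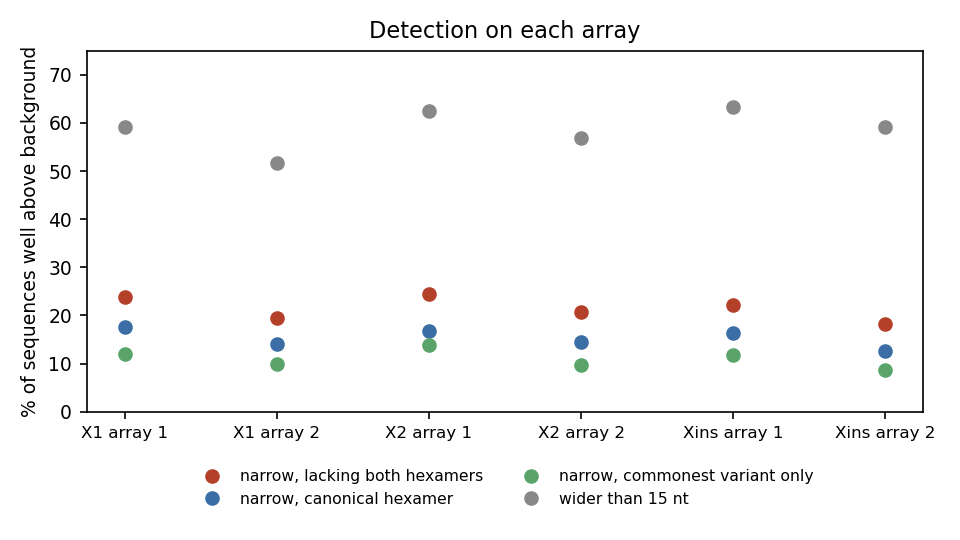
Percentage of sequences well above background on each of the 6 arrays, by class of site. The narrow sites lacking both hexamers lie at 18.3 to 24.4%, above the narrow sites with either hexamer and below the wide sites on every array.

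Differences between gates were tested at sequences detected on each array of some gate. This held for 412 of the 1852 (22.2%, exact interval 20.4 to 24.2%), against 284 of 1845 with AATAAA (15.4%), 11.1% with ATTAAA alone and 29.2% over all sequences. The 412 are therefore the brighter part of the set and do not stand for all of it.

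Detection moved with probe length and GC content. Of probes 45 nt long, 13.5% were tested, against 6.22% of AATAAA probes of that length, and of those of 55 to 60 nt, 50.9%, against 47.9%. Below 20% GC the share was 4.71%, against 3.21% with AATAAA, and at 30% GC or more 46.5%, against 43.6%. When AATAAA sites were weighted to the length and GC content of the sites lacking both hexamers, their share came to 18.2%, against 15.4% unweighted, while that of the sites lacking both was 22.2%. In 13 of 15 cells of length and GC with at least 20 sequences of each kind, the sites lacking both hexamers had the higher share. Since length equals 45 nt plus width at every narrow site, site width and probe length cannot be told apart.

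**Figure D3:**
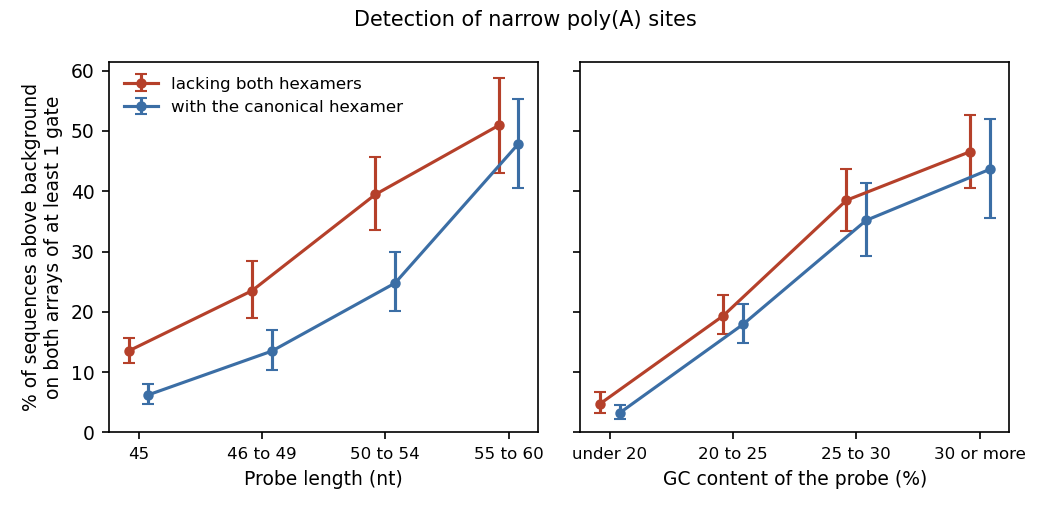
Percentage of narrow sequences that were tested (detected on each array of some gate), by probe length (left, nt) and probe GC content (right, %); bars are 95% exact intervals. Both classes climb with length and with GC content, and the sites lacking both hexamers lie above those with the canonical hexamer in each bin, with overlapping intervals in every GC bin.

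Within the set, sites with AATATA were tested in 126 of 590 cases (21.4%), those with another variant in 139 of 707 (19.7%), and those with none in 147 of 555 (26.5%). Their median GC contents were 20%, 22.2% and 24.4% in the same order. At the edge of the width rule, 25 of 52 sequences of width 14 to 15 nt were tested (48.1%). Just outside it, 26 of 48 sequences of width 16 to 17 nt that lacked both hexamers were tested (54.2%).

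Array signals are log2 intensities relative to each array's 75th percentile over the 1049 sequences detected on all 6 arrays. The 237 sites lacking both hexamers among these had array medians of -2.98 to -2.34, while the 159 with AATAAA had -2.94 to -1.97 and the 634 at wide sites -1.77 to -1.30. Different probes hybridise differently, so these medians describe the arrays and do not rank the sites. Across the 237, Pearson's r of mean signal with GC content was 0.32 and with probe length 0.08, as a description of probes that share arrays and base composition.

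Across the 412 tested sites, arrays of a gate correlated at 0.95 (X1), 0.946 (X2) and 0.948 (Xins). X2 arrays correlated with X1 arrays at 0.844 to 0.903 and with Xins arrays at 0.785 to 0.830, and Xins with X1 arrays at 0.651 to 0.691. Counts of calls follow, from limma with Benjamini-Hochberg adjustment over all 1578 tested sequences and a threshold of 0.05. The 3 comparisons share arrays.

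Xins differed from X1 at 193 of the 412 sites, counted as 79 higher and 114 lower. Higher in Xins were 19.2%, against 24.3% of all sequences tested, and lower were 27.7%, against 25.7%. Of the 79, 58 were detected on at least 1 X1 array and had a median difference of 4.62-fold, and the other 21 allow only a bound, at a median of at least 6.91-fold. Of the 114, 82 were detected in Xins, with a median of 3.85-fold, and 32 have a bound, at a median of at least 4.06-fold. Blocking on replicate number gave 117 higher and 169 lower (28.4 and 41.0% of the 412, against 33.6 and 39.5% of all sequences tested).

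The median log2 fold change of the 412 was -0.39, against -0.19 over all tested, but it was 0.14 in the authors' value table, where all tested sequences lay 0.54 higher than here. Higher calls made up 40.9% of the called sites, against 48.6% of the calls over all sequences, and 59.6%, against 67.8%, in that table. By hexamer, 25 sites with AATATA were higher and 39 lower of 126. Sites with another variant gave 25 and 42 of 139, and those with none gave 29 and 33 of 147. Among tested narrow sites with AATAAA, 48 were higher and 105 lower of 284.

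**Figure D4:**
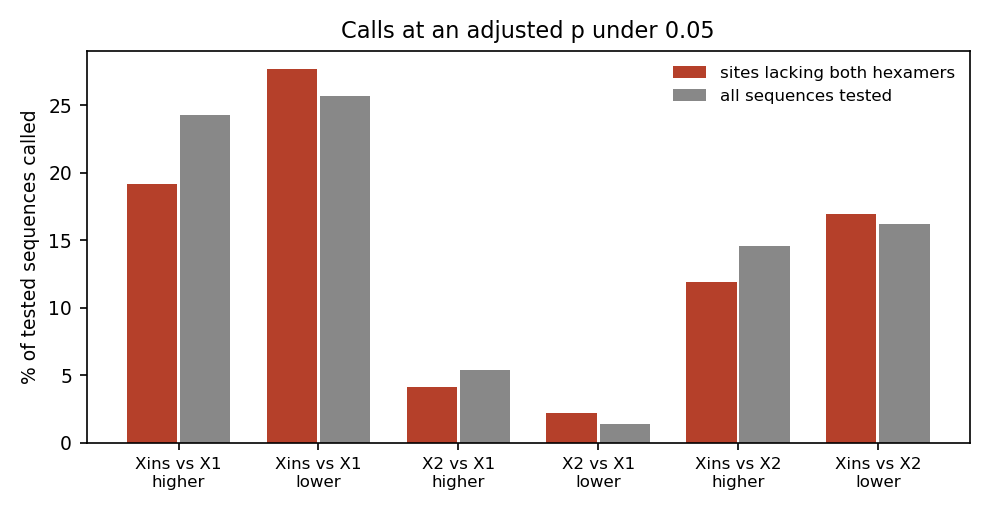
Percentage of tested sequences called higher or lower at an adjusted p under 0.05 (limma) in each comparison, for the 412 sites lacking both hexamers and for all 1578 sequences tested. The bars of the sites lie near those of all sequences, from 27.7% (Xins lower than X1) down to 2.18% (X2 lower than X1).

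X2 differed from X1 at far fewer sites. In X2, 17 were higher (4.13%, against 5.39% of all tested) and 9 lower (2.18%, against 1.39%). Of the 17, 12 were detected on at least 1 X1 array, with a median of 8.58-fold, and of the 9, 6 were detected in X2, with a median of 6.80-fold. Each of these arrays mattered to the counts, and leaving any of them out lowered the counts over all tested sequences as well. Leaving out X1 array 1 gave 5 higher and 3 lower, and leaving out X1 array 2 gave 3 and 1. When X2 array 1 was dropped there were 4 and 2, and when X2 array 2 was dropped 5 and 0. In that last fit by limma, 24 sites were lower at an unadjusted p under 0.05.

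The replicate number as a block gave 67 higher and 62 lower (16.3 and 15% of the 412, against 20 and 14.5% of all sequences tested). With the slide row as a block there were 26 and 14, against 131 and 47 over all sequences tested. The median log2 fold change of the 412 was 0.02, with -0.18 when scaled over all sequences, -0.01 after normexp and 0.60 under spike-in scaling. Over all tested sequences these scalings moved the median by -0.20, -0.02 and 0.58. Within the first slide row the median difference of the X2 array from the X1 array was 0.13, and within the second it was -0.01. Higher calls made up 65.4%, against 79.4% of the calls over all sequences. The share was 51.3% (62.6% over all sequences) when scaled over all sequences, 33.3% (52.7%) after normexp, 83.3% (92.7%) under spike-in scaling and 51.9% (57.9%) with the block.

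Xins differed from X2 at 119 sites. Of these, 49 were higher in Xins (11.9%, against 14.6% of all tested) and 70 lower (17%, against 16.2%). Detected on at least 1 X2 array were 33 of the 49, with a median of 5.91-fold, and detected in Xins were 45 of the 70, with a median of 3.62-fold. Leaving out an array of either gate lowered the counts, over all tested sequences as well. Dropping X2 array 1 left 29 higher and 24 lower, and dropping X2 array 2 left 30 and 21. Lower calls numbered 41 when Xins array 1 was dropped and 43 when Xins array 2 was. With the replicate block they were 81 and 170 (19.7 and 41.3% of the 412, against 22.8 and 37.5% of all sequences tested). Higher calls made up 41.2%, against 47.5% of the calls over all sequences, and 66.7%, against 77.1%, in the authors' value table. The F test over the gates called 175 sites (42.5%, against 46.6% of all tested), and 310 with the block (75.2%, against 75.9% of all tested).

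Single sites are described next by transcript model, since their genes are not named here. For the contigs, the sources used here name no genome build. The sites were picked by rule for the width of a difference, for a steady level or for detection in 1 gate alone. Sites with an A-rich end or with no variant were also picked, by the smallest F test p. Their differences between gates therefore describe how they were chosen. All values are log2 signals.

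AATATA is present at mk4.000401.10.01, which lies on the minus strand of Contig401 (85671 to 85683). It read 2.18 and 2.15 on the Xins arrays, against -4.98 and -4.85 on the X1 arrays. The X2 arrays gave -2.33 and -1.44. The 3 gates did not overlap, with X2 between the others. Xins was higher than X1 by 7.08 (SE 0.41, limma adjusted p = 0.000639), and X2 was higher than X1 by 3.03 (SE 0.41, limma adjusted p = 0.0138). After normexp with quantile normalization the difference of Xins from X1 was 4.06.

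A like order was seen at mk4.000610.08.01 (Contig610, minus strand, 55601 to 55610), also with AATATA. Its Xins arrays gave 2.43 and 2.38, against -3.09 and -3.57 for X1. On the X2 arrays it was at -0.82 and -1.38. Xins again lay highest and X1 lowest without overlap, by 5.73 (SE 0.38, limma adjusted p = 0.000639).

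Among sites detected on all 4 arrays compared, the widest fall in Xins against X1 was at OX_Smed_1.0.22926 (Contig158, plus strand, 162361 to 162366). This site has no variant hexamer and entered through 3 models. It was at -4.43 and -4.22 in Xins, against 0.72 and 0.77 in X1. X2 lay between, at -1.34 and -1.30. No gate overlapped another. Xins fell by 5.07 against X1 (SE 0.33, limma adjusted p = 0.000639) and by 3.01 against X2 (SE 0.33, limma adjusted p = 0.00492). Normexp with quantile normalization gave -2.62 and -1.08.

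At OX_Smed_1.0.13864 (Contig654, plus strand, 97693), a single-position site with no variant and 42.2% GC, Xins arrays read -4.29 and -4.13, against 0.37 and 0.38 on X1 arrays. The X2 arrays read -1.91 and -2.66. Signal was thus lowest in Xins, highest in X1 and between them in X2. Xins fell by 4.59 against X1 (SE 0.39, limma adjusted p = 0.000639), and normexp with quantile normalization gave -2.32.

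Among differences of X2 from X1 at sites detected on all 4 arrays, mk4.008247.00.01 (Contig8247, plus strand, 7074) was the highest. Its probe has no variant hexamer and 53.3% GC. X2 arrays gave 4.53 and 4.62, against -0.20 and -0.44 for X1. Xins arrays gave 3.09 and 4.27. X2 and Xins were both high and X1 low, with X2 over X1 by 4.90 (SE 0.47, limma adjusted p = 0.00649). The difference of Xins from X2, -0.90 (SE 0.47), was not called (limma adjusted p = 0.184).

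OX_Smed_1.0.22981 (Contig677, plus strand, 115449) also lacks a variant. In X2 it was at 0.38 and 0.32, against -4.03 and -3.83 in X1. The Xins arrays lay on both sides of X2, at -0.48 and 0.84. X2 was higher than X1 by 4.28 (SE 0.49, limma adjusted p = 0.00856), or 2.26 after normexp with quantile normalization.

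Among sites detected on all 4 arrays, the lowest X2 signal relative to X1 was at OX_Smed_1.0.00784 (Contig6, plus strand, 49210 to 49219), which carries CATAAA. X2 arrays read -5.01 and -5.85, against -0.36 and 0.54 on X1 arrays. Xins was at -3.77 and -1.83. X1 was highest and X2 lowest, and the Xins arrays lay widely apart between them. X2 fell by 5.52 against X1 (SE 0.71, limma adjusted p = 0.0129). This call ended after normexp with quantile normalization, at -2.18 (limma adjusted p = 0.0514), and without array 2 of X2, at -5.10 (limma adjusted p = 0.0534).

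OX_Smed_1.0.01327 (Contig1255, minus strand, 36645 to 36648), with AATATA, gave -4.05 and -4.11 in X2, against -0.91 and -0.82 in X1. In Xins it read -7.09 and -5.61, not well above background on either array. X1 lay above X2, and X2 above Xins, without overlap. X2 fell by 3.22 against X1 (SE 0.52, limma adjusted p = 0.0174), or by 1.37 after normexp with quantile normalization. Leaving out any 1 of the 4 arrays compared ended the call, with values of -3.26, -3.17, -3.25 and -3.18 and limma adjusted p of 0.0721 to 0.077. By measured signal X1 was 44.8-fold higher than Xins (limma adjusted p = 0.000751), with Xins not well above background.

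Among sites detected on all 4 arrays compared, both of the widest rises in Xins over X2 carried AATACA. OX_Smed_1.0.03038 (Contig14458, minus strand, 4708 to 4712), printed through 5 models, read 0.70 and -0.70 in Xins, against -4.09 and -5.28 in X2. X1 arrays gave -3.07 and -3.75. Xins stood above both other gates, which differed less from each other. Xins was higher than X2 by 4.68 (SE 0.63, limma adjusted p = 0.0078), or 2.08 after normexp with quantile normalization. X2 minus X1 was -1.27 (SE 0.63), not called (limma adjusted p = 0.256) but called with the replicate block (limma adjusted p = 0.0234).

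At OX_Smed_1.0.09211 (Contig6583, minus strand, 11634 to 11636), Xins gave 3.24 and 2.70, against -1.34 and -1.59 in X2. X1 was at -0.19 and -0.17, above X2 and below Xins. Xins was higher than X2 by 4.43 (SE 0.36, limma adjusted p = 0.0039). X2 minus X1 was -1.29 (SE 0.36), which was not called (limma adjusted p = 0.0926) but was called with the replicate block (limma adjusted p = 0.0176).

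Beside OX_Smed_1.0.22926, the widest fall in Xins against X2 at sites detected on all 4 arrays was at mk4.027145.01.01 (Contig27145, plus strand, 5550), with no variant. Xins arrays read -3.64 and -2.50, against -0.60 and 0.64 on X2 arrays. X1 was at -0.83 and 0.30. X1 and X2 overlapped, and both lay above Xins. Xins fell by 3.09 against X2 (SE 0.65, limma adjusted p = 0.017). The call ended without array 2 of X2, at -2.47 (limma adjusted p = 0.0692), and after normexp with quantile normalization, at -1.68 (limma adjusted p = 0.0743).

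**Figure D5:**
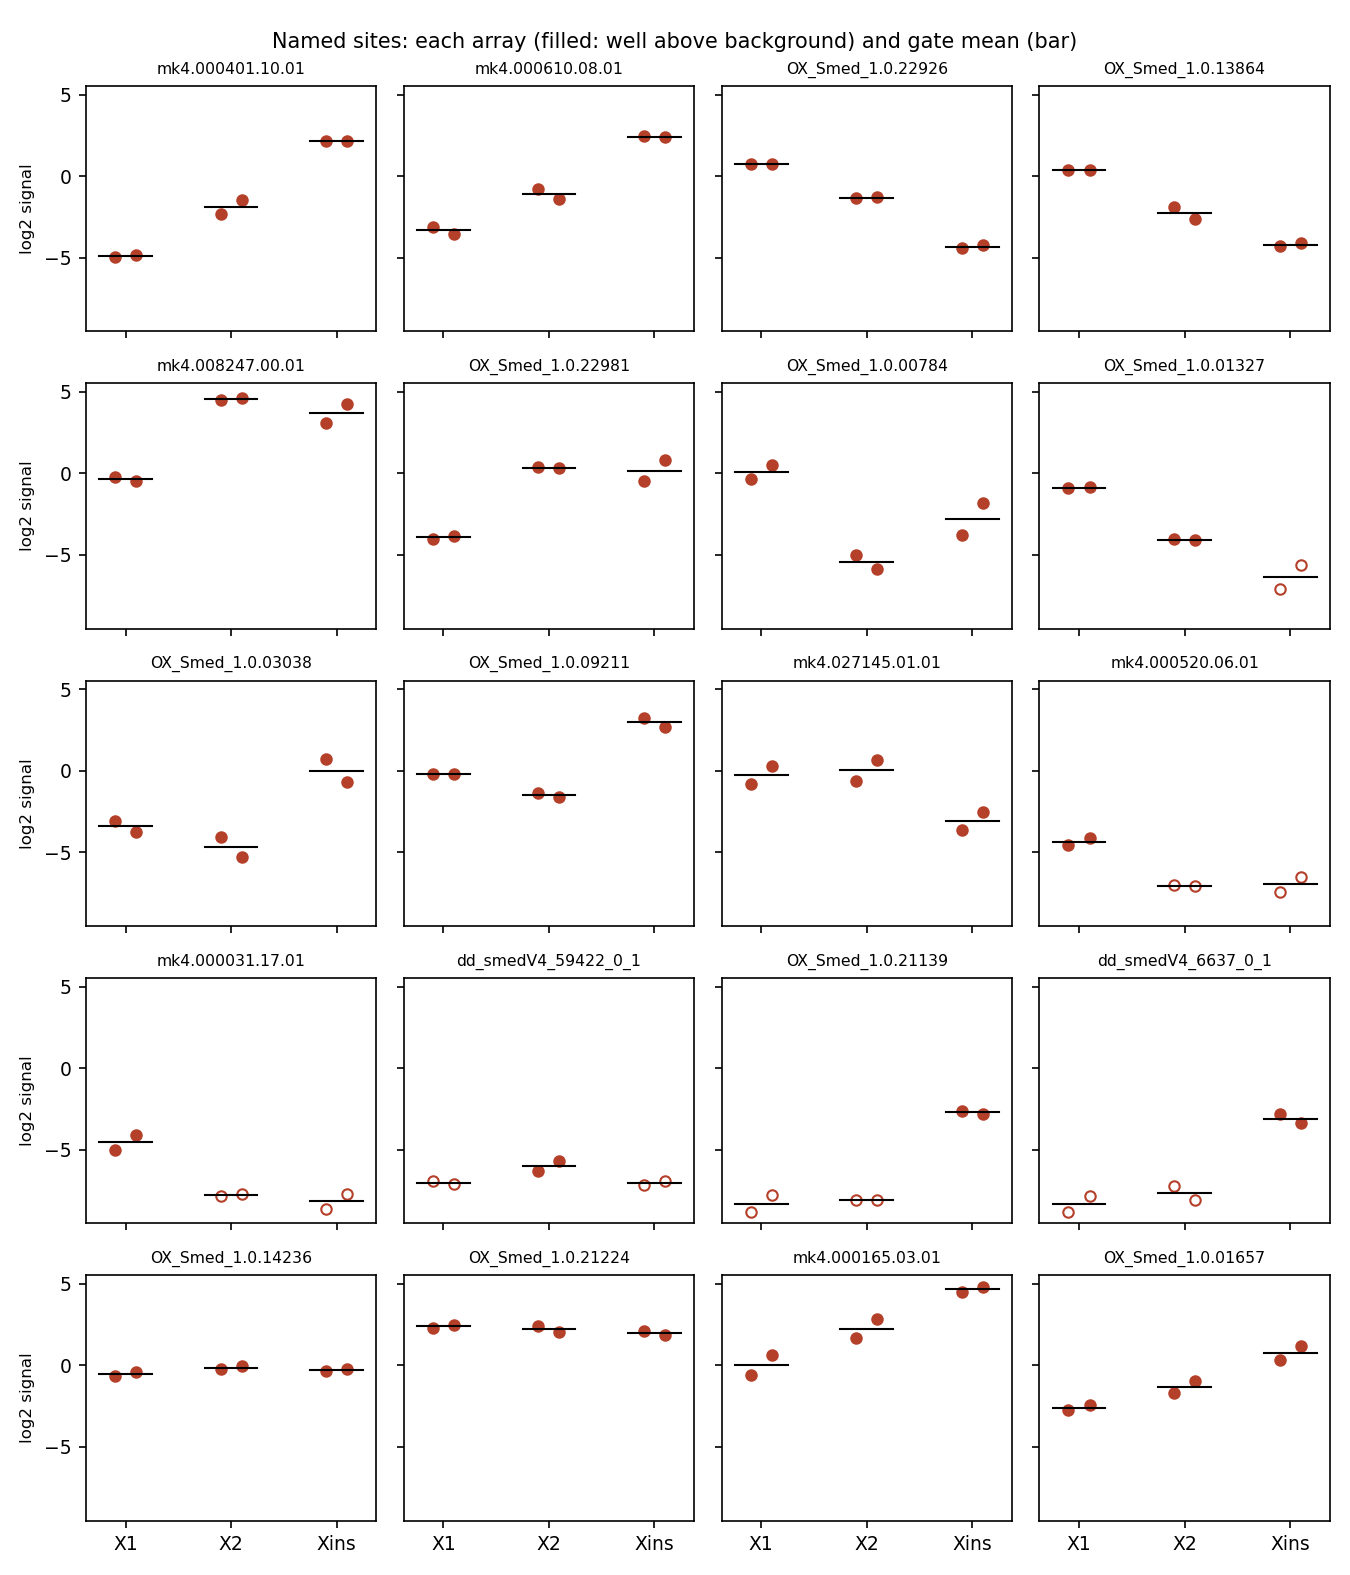
Log2 signal relative to each array's 75th percentile on every array of the named sites, by gate; filled points are well above background, open points are not, and bars are gate means of 2 arrays. The widest measured span is at mk4.000401.10.01, from X1 near -4.91 to Xins near 2.17, while OX_Smed_1.0.14236 and OX_Smed_1.0.21224 hardly move.

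Few sites were seen in 1 gate alone. On both arrays of that gate and no other array, 10 of the 1852 sequences were detected for X1 (0.540%), 1 for X2 (0.0540%) and 18 for Xins (0.972%), near the 0.444%, 0.129% and 0.999% of all 5406 sequences. They entered the tests through that gate only, so their calls describe how they were chosen. In X1, mk4.000520.06.01 (Contig520, minus strand, 59250 to 59263) gave -4.55 and -4.14, and mk4.000031.17.01 (Contig31, minus strand, 226847) gave -5.02 and -4.11. X1 was higher than Xins by a measured 6.21-fold at the first site and by at least 5.85-fold at the second.

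In Xins, OX_Smed_1.0.21139 (Contig873, minus strand, 57718), with no variant, was at -2.62 and -2.81, and dd_smedV4_6637_0_1 (Contig9564, minus strand, 9815 to 9825), with AATATA, at -2.82 and -3.37. Xins was at least 22.8-fold and at least 17.5-fold higher than X1 there. The X2 site, dd_smedV4_59422_0_1 (Contig1540, minus strand, 16391), was dim at -6.31 and -5.73. X2 was at least 1.75-fold higher than X1 and at least 1.82-fold higher than Xins there. Neither difference was called (limma adjusted p = 0.155 and 0.076), but both were called with the replicate block (limma adjusted p = 0.0393 and 0.0227).

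At the other end, the steadiest sites hardly moved. OX_Smed_1.0.14236 (Contig1938, plus strand, 49050 to 49054), with AATACA and GATAAA, read -0.65 and -0.43 in X1, -0.24 and -0.03 in X2, and -0.34 and -0.20 in Xins. OX_Smed_1.0.21224 (Contig656, minus strand, 91073 to 91083), with overlapping TATAAA and AATATA, read 2.33 and 2.51 in X1, 2.44 and 2.08 in X2, and 2.09 and 1.85 in Xins. They were chosen for their small range, so no test is given.

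Of the 16 sites with A-rich ends, 7 were tested (43.8%, exact interval 19.8 to 70.1%), against 405 of the 1836 others (22.1%). Their median GC content was 25.7%, against 22.2%. Among the 7, Xins was higher than X1 at 4 sites and lower at 2. Without the A-rich ends, 75 sites were higher (18.5%) and 112 lower (27.7%) of 405. Only 7 sites with A-rich ends were tested, so they could carry few of the calls in any case. Of the 39 tested sequences with A-rich ends on the whole array, 14 were higher and 10 lower.

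The A-rich site of mk4.000165.03.01 (Contig165, plus strand, 75526 to 75533) had 8 A in its last 10 bases, no variant hexamer and 40.4% GC. Xins arrays read 4.48 and 4.84, against -0.59 and 0.62 on X1 arrays. X2 was at 1.70 and 2.82, between the other gates and overlapping neither. Xins was higher than X1 by 4.64 (SE 0.57, limma adjusted p = 0.00149). X2 over X1 was 2.25 (SE 0.57), not called (limma adjusted p = 0.069) but called with the replicate block (limma adjusted p = 0.0114).

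OX_Smed_1.0.01657 (Contig5840, plus strand, 15977), also with 8 A, carries CATAAA upstream. It gave 0.32 and 1.19 in Xins, against -2.73 and -2.45 in X1. X2 arrays lay between at -1.67 and -0.97. Xins was higher than X1 by 3.35 (SE 0.45, limma adjusted p = 0.00205) and higher than X2 by 2.08 (SE 0.45, limma adjusted p = 0.0185). Whether either signal came from internal priming was not tested.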

How the data were processed

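Per the labels' protocols, mRNA selected with oligo-dT was turned into Cy3-labelled RNA by linear T7 amplification. The 6 arrays share 1 slide and 1 scan day. The scanner tables, as deposited, give linear intensity, made with Feature Extraction 11.5.1.1 per the file headers, background-subtracted and with surrogates at 55.5% of spots. The authors' value table was read as natural log (slopes of 0.694 to 0.695 per log2 unit, 0.717 for X2 array 1) and converted to log2; its column medians ran from 0.981 to 1.31, and its normalization and centring stay unknown, the submitters' processing notes naming limma only. Detection marks are the scanner software's, as deposited.

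Control spots and 11 outlier spots were left out, and spots of a sequence were averaged on the log2 scale, giving 5406 sequences from 15208 spots. A total of 2 sequences, 1 of them lacking both hexamers, had no value on an array. Each array's 75th percentile over the 1049 sequences detected on all 6 arrays was subtracted. limma 3.58.1 (R 4.3.3) fitted gate over all 6 arrays, and p-values were adjusted over 1578 sequences. The number of arrays limits precision: the median 95% half-width of a log2 fold change was 1.09. For a bound, each array of the dim gate took its own value or the lowest signal well above background there, whichever was higher, and the mean of these was set against the bright gate's mean. Where the arrays' own values were the higher, the result is the measured difference and not a strict bound.

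Replicate numbers come from the labels. Deviations of same-numbered arrays from their gate means correlated at 0.598 (X1 with X2), 0.472 (X1 with Xins) and 0.394 (X2 with Xins), so blocked counts are printed. In X1 and X2 the number coincides with the slide row, while both Xins arrays lay in row 2.

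The sites and lists were chosen with earlier results of these data known. Named sites were the 2 widest called rises and falls per comparison among sites detected on all 4 arrays with no overlap, the 2 brightest seen in each gate alone, the 2 steadiest, and the 2 A-rich and 2 variant-free sites with the smallest F test p. Alternatives were other scalings, normexp with offset 50, the authors' table, other detection and filter rules, blocks, and each array left out. Marker and processing-factor gene lists were not run, since models carry no gene names.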

Additional observations from a re-analysis of the deposited data

How the results depend on the processing

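Counts of called sites depended on the processing. For Xins against X1, higher calls were 44 after normexp, 41 among sites detected on all 6 arrays and 49 with spike-in scaling, and lower calls were 62, 50 and 58, with 65 in the authors' table and 67 without a filter. All sequences of each fit gave 252, 226 and 272 higher calls in that order, against 384 in the main fit. They gave 306, 279 and 187 lower, with 218 in the authors' table and 219 without a filter, against 406. For X2 against X1, higher calls were 4 after normexp, 6 on all 6 arrays, 67 with the replicate block and 26 with slide rows as blocks. Lower calls were 4 on all 6 arrays, 62 and 14 with these blocks, 19 when scaled over all sequences and 3 with spike-in scaling. Over all sequences of each fit, the higher calls were 29, 38, 315 and 131 in that order, against 85 in the main fit. The lower ones were 12, 229, 47, 61 and 6, against 22. For Xins against X2, higher calls were 29 after normexp, 25 on all 6 arrays, 16 with spike-in scaling and 81 with the replicate block. Lower calls were 34, 38, 32 and 170 in that order, with 29 in the authors' table and 14 without a filter. All sequences of each fit gave 156, 124, 75 and 360 higher calls, against 231 in the main fit. They gave 168, 190, 95 and 591 lower, with 80 in the authors' table and 41 without a filter, against 255. The F test called 85 after normexp, 85 on all 6 arrays, 94 with spike-in scaling, 113 without a filter and 310 with the replicate block. Over all 1578 sequences tested it called 736 in the main fit and 1197 with the replicate block. Testing only sites detected on all 6 arrays drops 175 of 412 sites by construction. The normexp setting changed the background correction and the normalization and added an offset, and these were not varied separately. Causes of the changes in counts under the other settings, normexp included, were not tested.

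Leaving out 1 array at a time gave, for Xins against X1, 56 to 83 higher and 76 to 113 lower. It gave 3 to 22 and 0 to 11 for X2 against X1, 29 to 44 and 21 to 64 for Xins against X2, and 126 to 156 for the F test. Where an arm was left with 1 array, it is assumed to vary like the other gates. In the fit with 0 lower calls by limma, 24 sites were lower at an unadjusted p under 0.05. The replicate block ended none of the calls at the named sites.

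The mean share detected per array, 21.5%, was 25.8% when any marked spot sufficed, 40.3% with the mark for a positive and significant signal, and 24.4% with widths up to 25 nt. A-rich ends made up 3.13% with at least 6 A and 0.162% with at least 8 A. A variant hexamer was found in 66.0% with a window of 15 to 30 nt. The number of sites lacking both hexamers was 1724 to 2025 under the other width and window rules. Of 191 alternative values for named sites, 183 kept their call, 8 lost it and 0 turned sign.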
